A study of Mus musculus with 15 samples.

Results

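Potassium channels let potassium leave or enter a cell and so set the resting potential, the length of an action potential and the rate at which a sensory neuron can fire. The channels described here are the voltage-gated, calcium-activated, sodium-activated and inward-rectifying kinds, with the partner proteins that travel with them. They were taken as the genes with a symbol on a list of 40 that leaves out the two-pore channels, and 39 of the 40 were measured among 19938 genes. The other listed symbol, Kcnh6, was not analysed here. The 39 genes were read by 41 probe sets, and Kcna2 and Kcnma1 had 2 each.

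The RNA came from neurons of mouse dorsal root ganglia, the clusters of sensory cell bodies beside the spinal cord, at lumbar levels 2 to 5 of the experimental side. All mice were C57BL/6 and carried green fluorescent protein under the control of the CGRP promoter (CGRP is calcitonin gene-related peptide), and their age is not given in the labels. Cells with a diameter over 26.9 µm were sorted by that reporter and by wheat germ agglutinin, a tracer carried back along the axon, which had been put into the gastrocnemius muscle or the saphenous nerve 5 days before the mice were killed. Of the 15 arrays, 3 held CGRP-positive neurons of the skin after saline in the paw (saline paw) and 3 held such neurons after complete Freund's adjuvant, which provokes inflammation (CFA paw). The other 9 held CGRP-negative neurons of muscle. In 3 of these the muscle had received saline, in 3 it had received CFA and in 3 acid, and they are called saline muscle, CFA muscle and acid muscle. The saline groups are the controls, and the labels name 3 biological replicates in each group. The target tissue, the CGRP status, the site of injection and the site of the tracer all change together between skin and muscle, so their parts in a difference cannot be told apart. The reporter reads the activity of the CGRP promoter, and the sort rests on it and on the uptake of the tracer.

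Each voltage-gated channel is built from 4 pore-forming alpha subunits. Kv1 subunits open at low voltages and damp repeated firing, Kv4 subunits carry a fast inactivating A-type current that delays the next spike, and Kv7 subunits carry the M-current, a slow brake on excitability that is a target of the drug retigabine. Beta subunits and the calcium-binding KChIP proteins bind to the pore subunits inside the cell and change how many reach the membrane and how they gate. Large myelinated sensory neurons are known for strong Kv1 currents, and A-type currents are known for shaping the firing of pain-sensing neurons.

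Stretches before the start sites of 3 genes are shown first, those of Kcnq5 and Kcnip3, the genes with the largest differences between skin and muscle neurons, and that of Kcnip2, which was lower on every skin array than on any muscle array. Each is the 250 bases before an annotated start on the minus strand, from RefSeq with the build GRCm38.p6, with any match to a searched motif in capitals. They are the upstream of Kcnq5 (start 1 of 2, chr1:21962651-21962900), of Kcnip3 (start 3 of 3, chr2:127482500-127482749) and of Kcnip2 (its 1 annotated start, chr19:45816064-45816313).
Kcnq5: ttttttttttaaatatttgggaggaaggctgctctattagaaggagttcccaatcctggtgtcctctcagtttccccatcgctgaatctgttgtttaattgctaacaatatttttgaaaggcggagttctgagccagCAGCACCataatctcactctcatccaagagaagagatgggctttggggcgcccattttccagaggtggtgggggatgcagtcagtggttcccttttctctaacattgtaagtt
Kcnip3: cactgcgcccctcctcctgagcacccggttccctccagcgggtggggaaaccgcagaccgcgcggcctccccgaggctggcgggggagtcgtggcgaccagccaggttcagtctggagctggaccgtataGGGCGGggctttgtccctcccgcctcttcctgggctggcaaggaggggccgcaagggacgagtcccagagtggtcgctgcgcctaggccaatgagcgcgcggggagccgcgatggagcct
Kcnip2: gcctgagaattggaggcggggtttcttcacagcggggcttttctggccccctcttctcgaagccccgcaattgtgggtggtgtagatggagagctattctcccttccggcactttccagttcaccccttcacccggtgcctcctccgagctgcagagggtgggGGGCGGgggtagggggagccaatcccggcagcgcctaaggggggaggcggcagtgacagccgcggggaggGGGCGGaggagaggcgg
The capitals mark CAGCACC in Kcnq5, 1 GGGCGG in Kcnip3 and 2 GGGCGG in Kcnip2. The windows were picked because they hold a match, and the other windows of these genes, start 2 of Kcnq5 and starts 1 and 2 of Kcnip3, hold none of the searched motifs. GGGCGG is the core of the box bound by Sp1-type factors, and CAGCACC is a stretch of the element bound by REST, a repressor of neuronal genes. The TATA box, TATAAA, was searched as well, all of them on both strands, and no 2 of the motifs contain each other. Of the 39 measured genes, 31 have a promoter entry, 9 of them among the 10 that differed between skin and muscle (Kcnd1 has none). GGGCGG was found for 22 of the 31 (71.0%) against 35.4% of 27025 genes, and for Kcnab2, Kcnip1, Kcnip2, Kcnip3 and Kcnn1 among the 9. CAGCACC was found for 4 of the 31 (12.9%) against 6.56% of genes, and for Kcnab2, Kcnq5 and Kcnt2 among the 9. TATAAA was found for 1 of the 31 (3.23%) against 14.3% of genes. A gene was counted where any of its windows matched. The 31 genes had 46 windows and the 27025 genes had 32851, so the channel genes had more windows per gene. By promoter in place of gene, the shares over all 32851 windows were 32.7% for GGGCGG, 5.73% for CAGCACC and 12.4% for TATAAA. The shares over the windows of the channel genes are not given here, so these values cannot be set against the 71.0%, 12.9% and 3.23% by gene. The 46 windows of the channel genes had a median GC content of 60.6%, against 52.4% over all windows, and GGGCGG is itself all G and C. A match describes the letters of the window and is not a bound site.

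Values are log2 expression as normalized by the authors, so a difference of 1 is a factor of 2, and levels of different genes are not set against each other. A level of 2.45, which 95% of 1190 olfactory and vomeronasal receptor genes did not exceed in their mean over the arrays, marks where a probe set can no longer be told from background. The mean of 37 of the 39 genes lay above it. Those of Kcns2 (1.84) and Kcnt2 (2.07) lay below, and Kcnd2 (2.53), Kcng4 (2.48) and Kcnj9 (2.54) lay close to it. A difference passed where limma's adjusted p, over all 19938 genes, was under 0.05.

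The arrays differed in spread. Over all genes the SD of an array lay between 1.28 and 1.55 for muscle and between 1.66 and 1.80 for paw, except saline paw replicate 1 with 1.42. That array correlated with the others of its group at 0.939 at the lowest, and for 24 of the 39 channel genes its level lay within the range of the muscle arrays. It lay below all other paw arrays for 23 of the genes and above them all for 6, against 30.8% and 37.6% of all genes. The median SD of a channel gene was 0.44 within saline paw and ran from 0.20 to 0.27 within the other 4 groups. Of 10 general neuronal markers all were higher on average in skin neurons, by a median of 1.49 after saline and 1.62 after CFA, and 4 and 7 of them passed. Their mean level ran from 8.60 to 9.64 in saline paw and from 9.30 to 9.52 in CFA paw, against 7.75 to 8.33 in saline muscle, 7.62 to 8.08 in CFA muscle and 7.55 to 8.71 in acid muscle, so the ranges of saline paw and acid muscle overlap. Calcb, Tac1, Gfra3 and Trpv1, markers of CGRP neurons, passed as higher in skin after both treatments (4 of 4 measured). Of 5 measured markers of large muscle afferents none passed as higher in muscle, while Cacna2d2 after both treatments and Ntrk3 after CFA passed as higher in skin. Of 6 markers of non-peptidergic neurons, 2 were above 0 after saline and 3 after CFA. Among them Mrgprd passed as higher in muscle after both treatments and Scn10a passed as higher in skin after CFA. Schwann cell markers had a median difference of −0.39 after saline and −0.84 after CFA, with 0 of 6 and 1 of 6 past the threshold (Mag, lower in skin). The medians of the markers of satellite glia, macrophages, lymphocytes, vessels and fibroblasts lay from −0.48 to 0.24 and none of those markers passed. Under the limit of 2.45 were 5 of 8 macrophage markers (Aif1, Cx3cr1, Adgre1, Itgam, Mrc1), 4 of 7 lymphocyte markers (Cd3g, Cd3d, Cd79a, Cd4) and 1 of 6 fibroblast markers (Lum). The part of these shifts in the results below was not tested, and in such pooled cells fewer cells of a type and less RNA per cell cannot be told apart.

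In skin neurons more of these channels were higher than lower, and the genes that passed came from the Kv1, Kv4, Kv7, small-conductance, sodium-activated and inward-rectifier families and their partners. After saline, 6 of the 39 were higher in skin than in muscle neurons and 0 were lower, where 1.87% of all genes passed as higher and 0.171% as lower. After CFA, 8 were higher and 2 were lower, against 5.75% and 0.667% of all genes. The 6 of the saline groups were Kcnq5, Kcnip3, Kcnd1, Kcnip1, Kcnab2 and Kcnt2, all 6 passed again after CFA, and Kcna2 and Kcnj3 joined them. Kcnip2 and Kcnn1 were the ones lower in skin after CFA. The median difference of the 39 genes was 0.23 after saline and 0.39 after CFA, where the medians of all genes were −0.016 and −0.041, and 26 and 27 of the 39 were above 0. Of all genes, 13409 had a mean above the background level. With the rest left out, 5 of 37 channel genes passed as higher after saline and 7 after CFA, against 524 and 1294 of the 13409. As lower, 0 and 2 passed, against 41 and 113. The medians of all genes were then 0.092 and 0.052, and those of the channel genes stayed at 0.23 and 0.39. The sign was shared by the 2 treatments for 34 of the 39 (87.2%), against 76.8% of all genes. The 2 comparisons share no arrays, though they share the fit's estimate of the spread. The surplus on the skin side depended on how the arrays are scaled, and so did that over all genes. Quantile normalization gave 5 higher and 2 lower after saline and 7 and 3 after CFA (all genes 254 and 93, then 608 and 155). Cyclic loess gave 5 and 3 and then 7 and 4 (all genes 317 and 142, then 879 and 228). An adjustment for the SD of each array gave 3 and 3 and then 5 and 3 (all genes 164 and 206, then 232 and 212). With that adjustment the medians were 0.026 and 0.023, against 0.035 and 0.042 for all genes. Array SD was itself higher on the paw arrays, except saline paw replicate 1, so the adjustment may take away part of a difference between tissues. Its size was estimated within the groups, where array SD varied most in saline paw, from 1.42 on replicate 1 to 1.80 on replicate 2. With each array centred on its median, 3 were higher and 0 lower after saline, and 8 and 1 after CFA (all genes 198 and 15, then 1023 and 60).

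**Figure D1:**
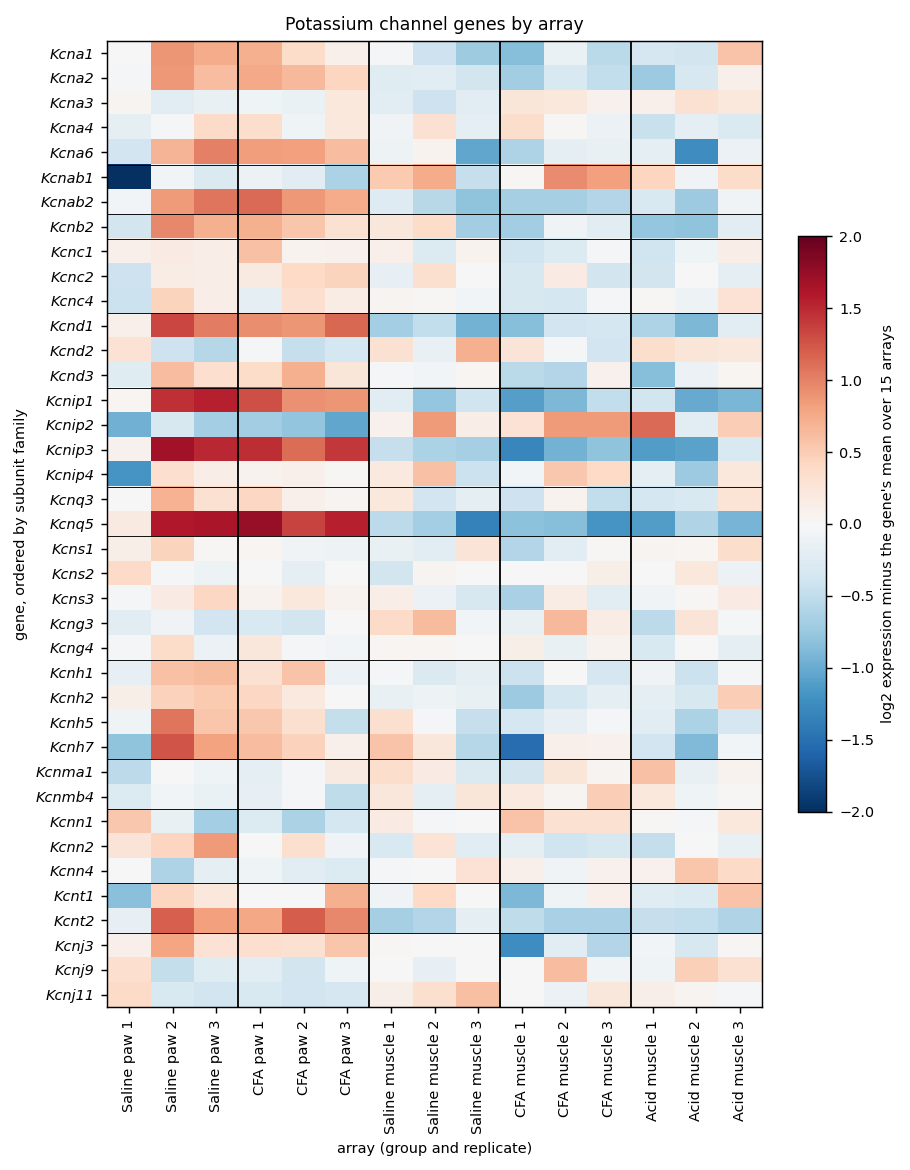
Log2 expression of the 39 potassium channel genes (rows, by family) on each of the 15 arrays (columns, by group and replicate), as the difference from each gene's mean over the arrays; red is higher and blue lower. Kcnd1, Kcnip1, Kcnip3, Kcnq5 and Kcnt2 are red on 5 of the 6 paw arrays, and saline paw replicate 1 is paler for these genes.

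**Figure D2:**
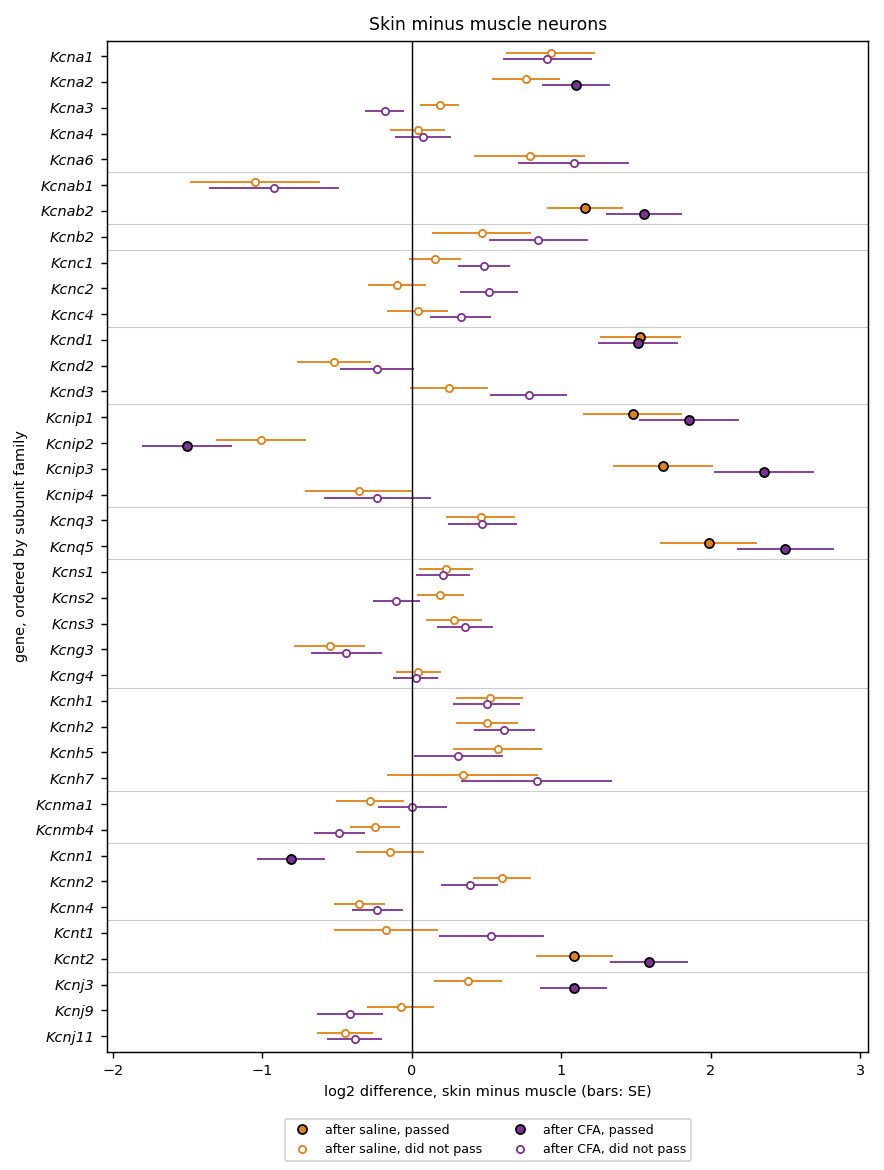
Difference in log2 expression between skin and muscle neurons for each of the 39 genes (rows, by family), after saline (orange) and after CFA (purple), with the standard error (SE) as bars. Filled points passed the test, 6 after saline and 8 higher and 2 lower after CFA.

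Kcnq5, the Kv7 subunit of the M-current whose promoter is printed above, had the largest difference of the 39 genes after both treatments. Its levels were 4.39, 5.81 and 5.84 in saline paw, 5.96, 5.57 and 5.76 in CFA paw, 3.68, 3.54 and 2.85 in saline muscle, 3.39, 3.36 and 3.04 in CFA muscle, and 3.09, 3.61 and 3.28 in acid muscle. Every paw array lay above every muscle array, with saline paw replicate 1 nearest to them. Kcnq5 was 3.97-fold higher in skin after saline (log2 difference 1.99, SE 0.325, adjusted p = 0.00728) and 5.66-fold higher after CFA (2.50, SE 0.325, adjusted p = 0.000660). Without saline paw replicate 1 the difference after saline was 2.47. The other Kv7 subunit measured, Kcnq3, which pairs with others to form the M-channel, differed by 0.46 after saline and 0.47 after CFA and did not pass (adjusted p = 0.333 and 0.262).

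The Kv4 group and its KChIP partners held 3 of the 6 genes that passed after saline and went both ways after CFA. Kcnip3, which encodes KChIP3, a calcium-binding partner of Kv4 also known as the transcriptional repressor DREAM, read 8.51, 10.11 and 9.94 in saline paw and 9.89, 9.55 and 9.84 in CFA paw. In muscle neurons it read 7.97, 7.79 and 7.75 after saline, 7.12, 7.47 and 7.62 after CFA, and 7.31, 7.35 and 8.12 after acid. The paw and muscle arrays did not overlap. Kcnip3 was 3.21-fold higher in skin after saline (1.68, SE 0.334, adjusted p = 0.0215) and 5.12-fold higher after CFA (2.36, SE 0.334, adjusted p = 0.00115). After quantile normalization these differences shrank to 0.94 and 1.52, and both still passed.

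Kcnd1, the Kv4.1 pore subunit, read 7.09, 8.33 and 8.01 in saline paw and 7.91, 7.87 and 8.14 in CFA paw. Its levels were 6.31, 6.50 and 6.04 in saline muscle, 6.14, 6.60 and 6.63 in CFA muscle, and 6.38, 6.10 and 6.78 in acid muscle. Again no paw array reached down to a muscle array. Kcnd1 was 2.89-fold higher in skin after saline (1.53, SE 0.270, adjusted p = 0.0110) and 2.86-fold higher after CFA (1.52, SE 0.270, adjusted p = 0.00465). Adjusted for array SD the differences were 0.91 and 0.78, and both passed.

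Kcnip1, encoding KChIP1, read 3.96, 5.39 and 5.48 in saline paw, 5.22, 4.83 and 4.80 in CFA paw, 3.72, 3.14 and 3.52 in saline muscle, 2.82, 3.02 and 3.43 in CFA muscle, and 3.55, 2.92 and 3.01 in acid muscle. The paw arrays lay above the muscle arrays, by little on saline paw replicate 1. It was 2.79-fold higher in skin after saline (1.48, SE 0.332, adjusted p = 0.0369) and 3.62-fold higher after CFA (1.86, SE 0.332, adjusted p = 0.00483). Adjusted for array SD neither passed (0.83 and 1.08, adjusted p = 0.163 and 0.0771).

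Kcnip2, encoding KChIP2, was the KChIP gene that passed as lower in skin. It read 4.04, 4.69 and 4.32 in saline paw and 4.31, 4.21 and 3.96 in CFA paw, against 5.09, 5.86 and 5.13 in saline muscle, 5.29, 5.85 and 5.85 in CFA muscle, and 6.13, 4.80 and 5.49 in acid muscle. All paw arrays lay below all muscle arrays, the only one of the 39 genes with that order. Kcnip2 was 2.83-fold lower in skin after CFA (−1.50, SE 0.301, adjusted p = 0.00925). After saline the difference was −1.01 (adjusted p = 0.100), which did not pass. It passed there after quantile normalization (−1.28, adjusted p = 0.0234) and with 2 other scalings, cyclic loess (−1.27) and adjustment for array SD (−1.46).

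Kcnip4, encoding KChIP4, had differences of −0.35 after saline and −0.23 after CFA that did not pass, and the paw and muscle arrays overlapped. In 3 of the 4 rescaled versions of the data it passed as lower in skin, and it did not pass with arrays centred on their medians. The values were −0.92 after saline and −0.95 after CFA with quantile normalization, −0.97 and −0.98 with cyclic loess, and −1.24 and −1.29 adjusted for array SD. The other Kv4 pore subunits did not pass. Kcnd3 (Kv4.3) differed by 0.25 and 0.78, and Kcnd2 (Kv4.2), whose mean lay under 2.45 in both paw groups, by −0.52 and −0.23. Dpp6, a membrane partner of Kv4 that was measured outside the 39, was 2.31-fold higher in skin after CFA (1.21, adjusted p = 0.0258) and differed by 0.92 after saline (adjusted p = 0.131). Its call was lost in 6 of 25 alternative settings, which were quantile normalization, adjustment for array SD (0.34, adjusted p = 0.409), and leaving out replicate 1 or 2 of CFA paw or of CFA muscle. A second probe set of Dpp6 had a mean of 2.04, under the background level, and gave 0.30 after CFA (adjusted p = 0.373). Dpp10, another listed partner outside the 39, went the other way and passed after neither treatment. It differed by −1.10 after saline (adjusted p = 0.176). After CFA it read 4.09, 4.36 and 4.29 in the paw and 5.31, 5.82 and 5.73 in muscle.

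**Figure D3:**
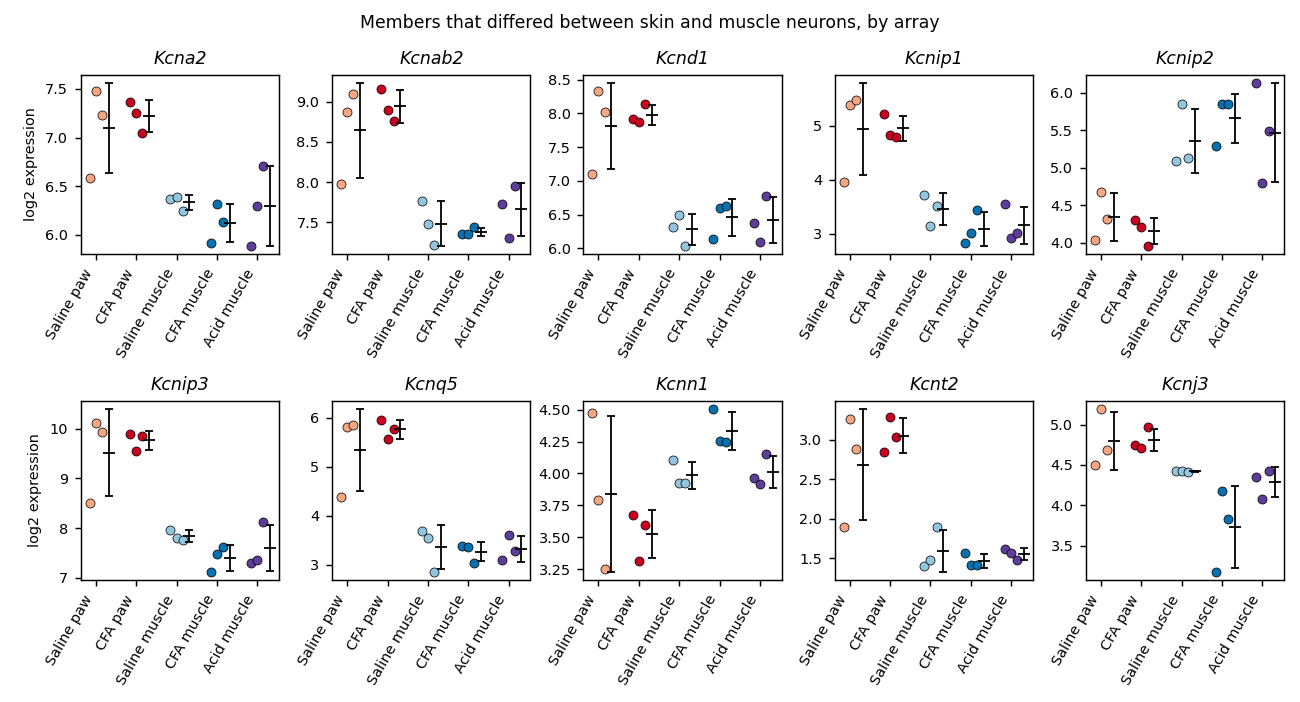
Log2 expression of the 10 genes that passed between skin and muscle neurons in at least 1 treatment, by array (points) and group, with mean and SD (bars, n = 3). For 8 of the 10 the paw points do not overlap the muscle points, though for Kcnt2 and Kcnab2 the gap is very small. Kcna2 and Kcnn1 are the exceptions, with overlap, and each panel has its own vertical range that does not start at 0.

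Of the Kv1 subunits, which line the juxtaparanodes of myelinated axons, Kcna2 passed after CFA. It read 6.58, 7.48 and 7.24 in saline paw, 7.37, 7.26 and 7.05 in CFA paw, 6.37, 6.39 and 6.24 in saline muscle, 5.92, 6.32 and 6.13 in CFA muscle, and 5.89, 6.30 and 6.71 in acid muscle. Only saline paw replicate 1 and acid muscle replicate 3 kept the paw and muscle arrays from separating. Kcna2 was 2.15-fold higher in skin after CFA (1.10, SE 0.228, adjusted p = 0.0108) and differed by 0.77 after saline (adjusted p = 0.100). Its second probe set gave 1.01 and 0.82 and passed in neither (adjusted p = 0.165 and 0.323). The call after CFA was lost with quantile normalization, where the difference was 0.50, with cyclic loess and adjusted for array SD (0.59), and without CFA paw replicate 1 or CFA muscle replicate 1. Kcna1, the partner of Kcna2 in the same channels, differed by 0.93 and 0.91 and Kcna6 by 0.79 and 1.08, and none of these passed. Kcna3 and Kcna4 differed by no more than 0.19 either way.

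Kcnab2, the beta subunit that helps carry Kv1 channels to the axon, passed after both treatments. Its levels were 7.97, 8.87 and 9.09 in saline paw, 9.16, 8.90 and 8.77 in CFA paw, 7.76, 7.47 and 7.21 in saline muscle, 7.35, 7.36 and 7.44 in CFA muscle, and 7.72, 7.30 and 7.96 in acid muscle. The lowest paw array, saline paw replicate 1 at 7.97, was barely above the highest muscle array at 7.96. Kcnab2 was 2.23-fold higher in skin after saline (1.16, SE 0.252, adjusted p = 0.0320) and 2.94-fold higher after CFA (1.56, SE 0.252, adjusted p = 0.00291). After quantile normalization the differences were 0.48, which did not pass (adjusted p = 0.0783), and 0.72, which passed. Kcnab1, the beta subunit that gives Kv1 channels fast inactivation, differed by −1.05 after saline and −0.92 after CFA and did not pass (adjusted p = 0.233 and 0.245). It read 3.29 on saline paw replicate 1 against 4.65 to 5.23 on the other paw arrays and 4.82 to 6.24 on the muscle arrays. With cyclic loess Kcnab1 passed as lower in skin (−1.35 and −1.25), as it did adjusted for array SD (−2.09 and −2.16).

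Kcnt2, a sodium-activated channel subunit, passed after both treatments at levels close to background. It read 1.90, 3.27 and 2.88 in saline paw, 2.85, 3.28 and 3.03 in CFA paw, 1.40, 1.49 and 1.90 in saline muscle, 1.56, 1.42 and 1.42 in CFA muscle, and 1.62, 1.57 and 1.47 in acid muscle. The muscle arrays and saline paw replicate 1 all lay under 2.45, so the size of the difference is uncertain there. That paw array, at 1.902, was barely above the highest muscle array at 1.898. The log2 difference was 1.09 after saline (SE 0.261, adjusted p = 0.0468) and 1.59 after CFA (SE 0.261, adjusted p = 0.00310). Kcnt1, the other sodium-activated subunit, differed by −0.17 and 0.53 and did not pass.

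Among inward rectifiers, Kcnj3, a subunit of the G protein-gated channel that opioid and other receptors open, passed after CFA. Its levels were 4.50, 5.20 and 4.69 in saline paw, 4.75, 4.71 and 4.97 in CFA paw, 4.43, 4.42 and 4.41 in saline muscle, 3.17, 4.18 and 3.83 in CFA muscle, and 4.35, 4.08 and 4.43 in acid muscle. The paw arrays lay above the muscle arrays, closely so in the saline groups. Kcnj3 was 2.12-fold higher in skin after CFA (1.08, SE 0.225, adjusted p = 0.0109) and differed by 0.38 after saline (adjusted p = 0.420). The call was lost adjusted for array SD (0.69, adjusted p = 0.180) and without CFA paw replicate 3. Kcnj9, a subunit of the same kind, differed by −0.074 and −0.41 near the background level, and Kcnj11, the pore of the ATP-sensitive channel, by −0.44 and −0.38. Neither passed.

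Of the calcium-activated channels, Kcnn1 (SK1), one of the small-conductance channels that follow a spike with a slow hyperpolarization, was lower in skin after CFA. It read 3.67, 3.31 and 3.59 in CFA paw and 4.51, 4.25 and 4.25 in CFA muscle, and the groups did not overlap. In saline paw it read 4.47, 3.79 and 3.25 and in saline muscle 4.10, 3.92 and 3.93, with replicate 1 of saline paw above all other paw arrays. The difference after CFA was −0.81 (SE 0.228, adjusted p = 0.0495), and the call was lost in 15 of 25 alternative settings. After saline it was −0.15 (adjusted p = 0.780). The other calcium-activated genes did not pass. Kcnn2 (SK2) differed by 0.61 and 0.39, and Kcnn4, the intermediate-conductance channel, by −0.35 and −0.23. Kcnma1, the pore of the large-conductance BK channel, differed by −0.28 and 0.0043, and by −0.18 and −0.26 in its second probe set, whose mean of 2.32 lay under the background level. Kcnmb4, a beta subunit of BK, differed by −0.25 and −0.48.

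None of the genes of the other families passed between skin and muscle. The delayed-rectifier subunit Kcnb2 (Kv2.2) differed by 0.47 and 0.85. The fast Kv3 subunits Kcnc1, Kcnc2 and Kcnc4 differed by −0.10 to 0.16 after saline and 0.33 to 0.52 after CFA. The ether-à-go-go and ERG subunits Kcnh1, Kcnh2, Kcnh5 and Kcnh7 were above 0 in all cases, at 0.34 to 0.58 and 0.31 to 0.84. The silent subunits, which form no channel alone and modify Kv2 channels, ran from −0.55 (Kcng3) to 0.28 (Kcns3) after saline and from −0.44 (Kcng3) to 0.36 (Kcns3) after CFA, with Kcns1, Kcns2 and Kcng4 between. The widest spread of a channel gene within a group was that of Kcnh7 in saline paw, where it read 4.87, 6.94 and 6.48.

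The 9 muscle arrays and the 6 paw arrays were also compared by order alone. For 7 of the 39 genes (Kcnab2, Kcnd1, Kcnip1, Kcnip3, Kcnq5, Kcnt2 and Kcnj3) every paw array lay above every muscle array, as for 2.44% of all genes, and for 1 (Kcnip2) every paw array lay below, as for 0.592%. Without saline paw replicate 1 the counts were 10 and 4, with Kcna2, Kcna6 and Kcnd3 added above and Kcnn1, Kcnn4 and Kcnj11 below, where 11.3% and 5.02% of all genes had such an order. In the test after saline, leaving that array out gave 13 higher and 2 lower channel genes, and 2807 and 1017 of all genes in place of 373 and 34. The genes added as higher were Kcna1 (1.20), Kcna2 (1.03), Kcna6 (1.20), Kcnb2 (0.87), Kcnh1 (0.78), Kcnh5 (0.88) and Kcnn2 (0.73), and those lower were Kcnd2 (−0.78) and Kcnj11 (−0.69). Without saline paw replicate 2 or 3, 0 of the 39 passed after saline. Of all genes, 51 higher and 7 lower passed without replicate 2, and 47 and 4 without replicate 3.

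Beside the 39 genes, 41 of 46 other listed potassium channel genes and partners were measured, and few passed. After saline 2 were higher in skin, the silent subunit Kcnv1 and the BK beta subunit Kcnmb1, and 1 was lower, Kcnj1. Kcnv1 read 4.43, 6.01 and 6.15 in saline paw and 3.11, 2.89 and 2.53 in saline muscle, a 6.42-fold difference (2.68, SE 0.362, adjusted p = 0.00297), and was 6.25-fold higher after CFA. Kcnmb1 read 6.21, 7.55 and 7.93 against 5.25, 5.44 and 4.88, a 4.12-fold difference (2.04, SE 0.365, adjusted p = 0.0115), and was 3.79-fold higher after CFA. The difference of Kcnj1 was −0.85 (adjusted p = 0.0305), with a paw mean of 1.77 that lay under the background level. After CFA 4 were higher, Kcnv1, Kcnmb1, Dpp6 and Lgi1, and 0 were lower. Lgi1, a secreted partner of Kv1 channels, differed by 1.50 (adjusted p = 0.0447), and its call was lost in 12 of 25 alternative settings. Adjusted for array SD, Lgi1 differed by 0.37 (adjusted p = 0.639) and Kcnmb1 after CFA by 0.91 (adjusted p = 0.0749), which did not pass, while Kcnv1 after CFA kept its call in all 25 settings. After saline the call of Kcnj1 was lost in 7 of 24 settings, that of Kcnmb1 in 4 of 25 and that of Kcnv1 in 1 of 25. The median of the 41 was −0.028 after saline and −0.072 after CFA, where that of the 39 was above 0. The 2 lists differ in level. Many of the 41, among them Kcna5, Kcnf1, Kcnj2, Kcnj6 and Kcnrg, had means under 2.45 in all 5 groups. The means of 37 of the 39 lay above it. The part of this in the 2 medians and in the number that passed was not tested.

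Whether inflammation or acid changed these channels within a tissue was asked in 4 comparisons. None of the 39 genes passed in any of them, nor did any of the 19938 genes (0% called in each). The lowest adjusted p of a channel gene was 1.00 in each comparison. At an unadjusted p under 0.05, CFA paw against saline paw held 1 channel gene against 1.21% of all genes, CFA muscle against saline muscle 2 against 2.6%, acid muscle against saline muscle 1 against 2.85%, and CFA muscle against acid muscle 2 against 3.14%. The median differences of the 39 genes were 0.012, −0.12, −0.034 and −0.062 in that order. These medians moved with single arrays. For CFA in the paw the median was −0.13 without saline paw replicate 1, with 9 of the 39 genes above 0 in place of 22, and 0.12 without saline paw replicate 2. For CFA in the muscle it was −0.021 without saline muscle replicate 1 and −0.23 without saline muscle replicate 3. For acid it was 0.022 without acid muscle replicate 2 and −0.12 without acid muscle replicate 3, and for CFA against acid it was 0.0031 without CFA muscle replicate 1 and −0.12 without acid muscle replicate 2. The SE of a channel gene's difference ran from 0.132 to 0.506, which limits how small a shift 3 arrays a group can show.

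In the paw, the lowest unadjusted p belonged to Kcnn2. It read 3.33, 3.50 and 3.92 after saline and 3.06, 3.39 and 2.99 after CFA, with overlap (−0.44, SE 0.194, unadjusted p = 0.0403). With array weights, which were 0.148, 0.959 and 7.18 for saline paw replicates 1, 2 and 3, Kcnn2 passed as lower after CFA (−0.68, adjusted p = 0.0350). Without saline paw replicate 1 its difference was −0.56, and without replicate 3 it was −0.27. Neither of these passed. Kcnc2 (0.39), Kcnt2 (0.37) and Kcnn1 (−0.31) followed, and without saline paw replicate 1 these values were 0.21, −0.022 and 0.0048.

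In muscle, Kcna3, a Kv1 subunit also known from immune cells, read 3.37, 3.19 and 3.37 after saline, 3.83, 3.81 and 3.68 after CFA, and 3.69, 3.91 and 3.81 after acid. The treated arrays lay above the saline arrays in both cases, and the 2 comparisons share those saline arrays. Its differences were 0.46 for CFA (SE 0.132, unadjusted p = 0.00333) and 0.49 for acid (SE 0.132, unadjusted p = 0.00222). In saline paw the same gene read 3.65, 3.39 and 3.45. Kcnj3 was the other gene with a low p after CFA in muscle, at −0.70 (SE 0.225, unadjusted p = 0.00783) against saline and −0.56 against acid (unadjusted p = 0.0250). Its value against saline was −0.42 without CFA muscle replicate 1, which read 3.17. Kcnj11 (−0.31) and Kcnn1 (0.35) came next for CFA, and Kcng3 (−0.43), Kcna4 (−0.33) and Kcnb2 (−0.56) for acid. Between CFA and acid they were Kcns1 (−0.41, unadjusted p = 0.0404), Kcna4 (0.39) and Kcnh2 (−0.42).

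**Figure D4:**
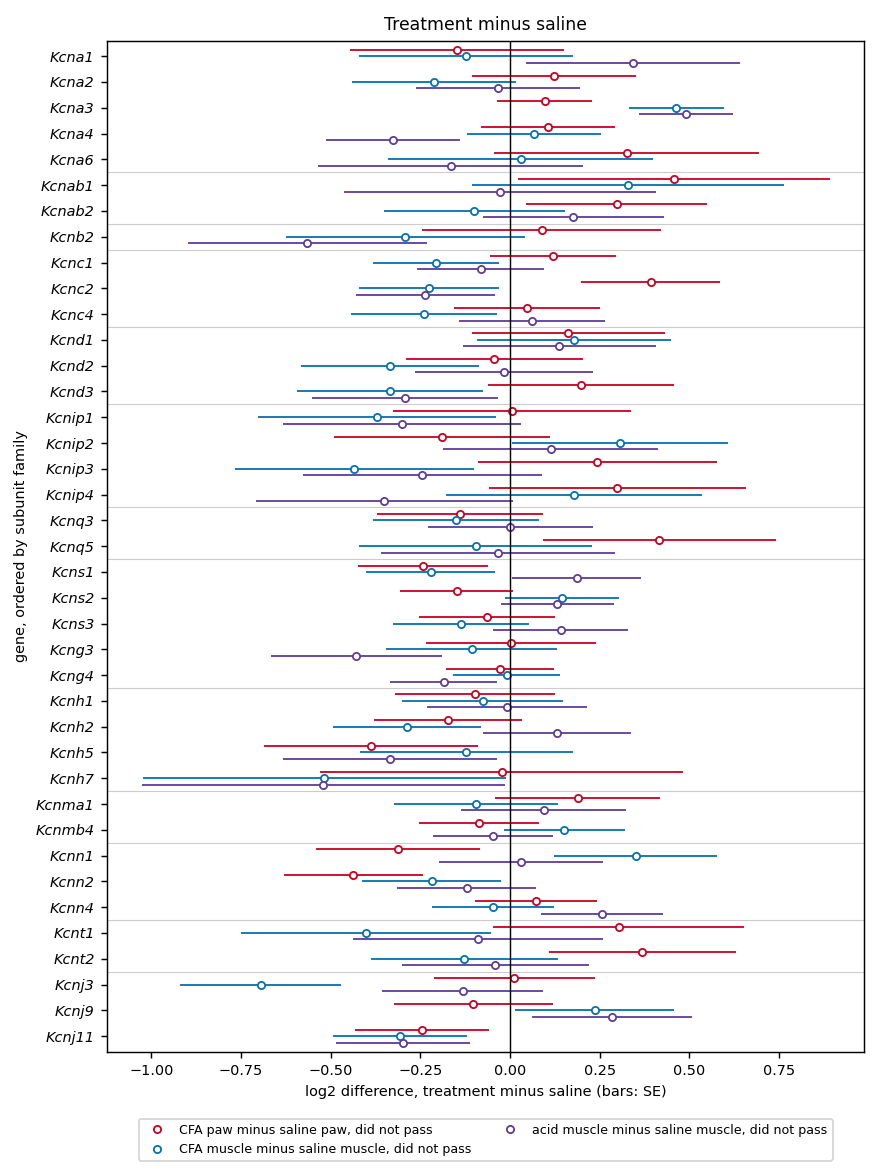
Difference in log2 expression from the saline group of the same tissue for each of the 39 genes (rows, by family), for CFA in the paw (red), CFA in the muscle (blue) and acid in the muscle (purple), with the SE as bars. No point passed, and the values run from −0.70 (Kcnj3, CFA muscle) to 0.49 (Kcna3, acid muscle).

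The last comparison asked whether CFA acted differently in muscle and in paw. None of the 39 and none of the 19938 genes passed (0% called), and 2 channel genes had an unadjusted p under 0.05, against 1.63% of all genes. These were Kcnj3, with a CFA effect of −0.70 in muscle and 0.012 in the paw (difference −0.71, SE 0.318, unadjusted p = 0.0428), and Kcnc2, with −0.23 and 0.39 (difference −0.62, SE 0.275, unadjusted p = 0.0412). Kcnn1 (0.66) and Kcna3 (0.37) came next. The median of the 39 differences was −0.12, and it was 0.062 without saline paw replicate 1. Kcna2, Kcnip2, Kcnj3 and Kcnn1 passed between skin and muscle after CFA and not after saline. The difference between the treatments, tested in this last comparison, did not pass for any of them.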

How the data were processed

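RNA of 15 samples was measured on Affymetrix whole-transcript arrays, from 50 ng of RNA each, per the labels. Per probe set the authors deposited normalized log2 expression, which was used unchanged. RMA and Partek, without versions, appear in the submitters' processing notes, and the base of the logarithm was read from the range of the values. Array medians over 35556 probe sets ran from 2.65 to 2.92. The genome build used by the authors is not given in the sources used here.

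The probe table names 23410 probe sets, 21789 with 1 gene symbol and 1621 with several. The latter and 12146 unnamed ones were not analysed here. Gene identifiers of 21698 probe sets matched the RefSeq gene table, and 0 symbols were updated. For 999 genes with several probe sets the brightest by its mean stood for the gene, and 19938 genes were tested.

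Groups came from the sample titles. Group means were fitted to all 15 arrays in R 4.3.3 with limma 3.58.1 (lmFit, eBayes, 10 residual and 4.32 prior degrees of freedom), two-sided, with Benjamini-Hochberg adjustment over all genes and a threshold of 0.05. The code was tested on simulated data. With 3 arrays a group their number limits the precision. Each p-value sets a difference against a spread between arrays that was estimated over all 5 groups together.

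Every channel gene past the threshold is named with its values, and where none passed, the 4 with the smallest p. Other channel genes are given by ranges, and of the other potassium genes those past the threshold are named, with Dpp10 and some of those under the background level. The members, the lists of genes, the motifs and the promoters shown were chosen with earlier results of these data known. Alternatives were quantile normalization, cyclic loess, centring on medians, adjustment for array SD, a fit restricted to the 2 groups compared, removal of dim genes, a replicate block, array weights, averaging the probe sets of a gene, a robust prior with an intensity trend, and leaving out each array.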

Additional observations from a re-analysis of the deposited data

How the results depend on the processing

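After CFA, Kcnab2, Kcnd1, Kcnip2, Kcnip3 and Kcnq5 kept their call between skin and muscle in all 25 alternatives and Kcnt2 in 24, being left out as dim in the other, and no call of the 39 genes turned its direction. The calls after saline were less stable. Kcnq5 lost its call in 3 of 25 settings, Kcnd1 in 4, Kcnip3 in 6, Kcnab2 and Kcnip1 in 13 each, and Kcnt2 in 18 of 24. The count of channel genes higher after saline, 6 as reported, was 3 with centred arrays, 3 adjusted for array SD, 0 in a fit restricted to the groups compared and 16 with array weights. It ran from 0 to 13 when 1 array was left out, with 13 without replicate 1 of saline paw and 0 without its replicate 2 or 3. Over all genes, 2807, 51 and 47 were higher without those 3 arrays in turn. The count of channel genes was 3, 2 and 1 without replicates 1, 2 and 3 of saline muscle (all genes 190, 101 and 96). It was 3 without CFA paw replicate 2 or CFA muscle replicate 2 (all genes 220 and 238). The count lower, 0 as reported, was 2 with quantile normalization, 3 with cyclic loess, 3 adjusted for array SD and 6 with array weights, and 0 to 2 with an array left out. After CFA the count higher, 8, was 5 adjusted for array SD, 13 in the restricted fit and 15 with array weights, and 7 to 12 with an array left out. The 12 came without saline paw replicate 1, which enters this comparison only through the shared estimate of the spread. Over all genes, 2106 were then higher in place of 1146. The count lower, 2, was 4 with cyclic loess, 1 with centred arrays and 5 with array weights, and 1 to 2 with an array left out, where Kcnn1 was the call lost. In CFA paw against saline paw, array weights gave 1 lower gene, Kcnn2.

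Within saline paw the array weights lay between 0.148 for replicate 1 and 7.18 for replicate 3. Over all genes after saline, 373 higher and 34 lower became 254 and 93 with quantile normalization, 317 and 142 with cyclic loess, 164 and 206 adjusted for array SD, 4272 and 3107 with array weights and 0 and 0 in the restricted fit. After CFA, 1146 and 133 became 608 and 155, 879 and 228, 232 and 212, 2812 and 1242, and 2529 and 680 in the same order. Of the 4 channel genes named for CFA in the paw, none of which passed, 2 changed sign, and over the 39 genes those above 0 went from 22 to 9 without saline paw replicate 1. That of Kcnt2 was −0.022 without saline paw replicate 1 and ran from −0.022 to 0.66 with an array left out. That of Kcnn1 was 0.17 with array weights and ran from −0.60 to 0.0048 with an array left out. The cause was not tested. Over 30 pairs of same-numbered arrays the correlation of their deviations from the group means ran from −0.53 to 0.34, with a median of −0.045 and 10 over 0.1, so the replicate numbers were not taken as pairs. With the replicate block 3 channel genes were higher after saline (Kcnd1, Kcnip3 and Kcnq5) in place of 6.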
